A study of Mus musculus with 11 samples.

Results

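The subject is the nuclear-encoded subunits of respiratory complexes II to V, with cytochrome c, in a mouse pancreatic alpha cell line. Members were chosen by gene symbol: Sdha to Sdhd, symbols that begin with Uqcr, Cyc1, Cycs, symbols that begin with Cox4 to Cox8, and symbols that begin with Atp5, with pseudogenes ending in -ps left out. This gave 50 rows of the 53947 in the table, for 49 symbols, since Atp5o has a second row that is almost without counts. Complex II had 4 rows, complex III 9, cytochrome c 1, complex IV 18 and complex V 18. Of the 50, 43 passed the filter on low counts and were tested.

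Messenger RNA was sequenced from aTC1-6 cells, an immortalised glucagon-producing line, 72 h after knockdown. There were 4 libraries with knockdown of Mettl3 (Mettl3 KD), 4 with knockdown of Mettl14 (Mettl14 KD) and 3 from a scramble control. METTL3 and METTL14 are the catalytic and the RNA-binding subunit of the enzyme that writes N6-methyladenosine on messenger RNA. All 3 groups are reverse-transfected cultures of this 1 line, the sources used here do not name the knockdown reagent, and both knockdowns are set against the same 3 scramble libraries. Separate cultures per replicate are not mentioned in the labels, and the p-values therefore rest on a spread between libraries that may be technical.

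Complex II oxidises succinate, complex III passes electrons on to cytochrome c, complex IV reduces oxygen, and complex V, the ATP synthase, makes ATP from the proton gradient that complexes III and IV help to build. The members are nuclear genes whose products are imported and assembled with a few subunits encoded in mitochondrial DNA. In islet endocrine cells, mitochondrial ATP links nutrient metabolism to hormone secretion. Several members come in tissue forms, such as the muscle forms of complex IV subunits.

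Sequences at the start sites of members that the results turn on are shown because genes of this group are textbook targets of the transcription factors NRF1, GABP, YY1 and the estrogen-related receptors. They are the member with the smallest p in Mettl3 KD among those that rose in each of complexes II, III, IV and V, plus Cox6a1, which fell. Each runs from 150 bases before to 30 bases after the annotated start, on the gene's strand, from RefSeq, build GRCm38.p6. Capitals mark a match, on either strand, to the NRF1 type (GCGCA and GCGC with 1 base of any kind between them), the ETS type that GABP binds (CCGGAAG), the YY1 type (AAGATGGC) or the estrogen-related receptor type (TCAAGGTCA). No one of these motifs contains another.
Sdhb, plus strand, chr4:140961121-140961300: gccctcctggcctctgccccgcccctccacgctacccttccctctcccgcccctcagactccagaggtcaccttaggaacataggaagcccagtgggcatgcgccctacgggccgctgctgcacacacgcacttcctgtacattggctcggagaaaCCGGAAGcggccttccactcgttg
Uqcrfs1, minus strand, chr13:30545287-30545466: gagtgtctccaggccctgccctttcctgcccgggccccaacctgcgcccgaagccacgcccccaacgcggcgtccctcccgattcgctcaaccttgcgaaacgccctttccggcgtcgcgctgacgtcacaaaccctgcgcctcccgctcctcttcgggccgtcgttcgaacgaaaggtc
Cox7a2, minus strand, chr9:79759824-79760003: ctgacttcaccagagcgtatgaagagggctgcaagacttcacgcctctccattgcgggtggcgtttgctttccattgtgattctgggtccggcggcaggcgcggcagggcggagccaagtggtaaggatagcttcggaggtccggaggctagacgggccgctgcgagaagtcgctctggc
Atp5g3, minus strand, chr2:73911297-73911476: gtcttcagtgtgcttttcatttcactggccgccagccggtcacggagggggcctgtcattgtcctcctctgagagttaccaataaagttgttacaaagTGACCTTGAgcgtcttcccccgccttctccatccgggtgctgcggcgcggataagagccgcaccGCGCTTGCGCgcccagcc
Cox6a1, minus strand, chr5:115348929-115349108: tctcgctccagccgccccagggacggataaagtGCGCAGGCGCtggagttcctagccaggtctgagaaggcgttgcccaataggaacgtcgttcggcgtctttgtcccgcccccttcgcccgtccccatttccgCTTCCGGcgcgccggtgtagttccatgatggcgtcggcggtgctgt
Sdhb held the ETS type, Atp5g3 the NRF1 type and the estrogen-related receptor type, and Cox6a1 the NRF1 type and the ETS type. None of the 4 motifs was found in the windows shown for Uqcrfs1 and Cox7a2. Over the full windows, from 250 bases before to 50 bases after the start, 34 of the 43 tested members had an entry. The NRF1 type was in 10 of these 34 (29.4%), against 5.19% of all 27025 genes with a window and 11.7% of the 10366 tested genes with one. The ETS type was in 12 of 34 members (35.3%), against 9.93% of all genes and 20.3% of tested genes. The YY1 type was in 3 members (8.82%, against 3.19% of all genes and 5.35% of tested genes) and the estrogen-related receptor type in 2, Atp5g3 and Sdhd (5.88%, against 0.47% of all genes and 0.34% of tested genes). Of the 18 members with a window that were higher in Mettl3 KD, 8 held the NRF1 or the ETS type, against 18 of all 34.

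Depth was even, at 19576632 to 22406527 estimated counts a library, and member rows took 1.45% to 1.48% of the counts in Mettl3 KD, 1.45% to 1.47% in Mettl14 KD and 1.204% to 1.335% in scramble libraries. Levels are CPM, counts scaled to a fixed total per library, with library sizes adjusted by edgeR's TMM factors. Levels of cell type and tissue markers are CPM on library totals, without those factors. The targeted genes followed the labels. Mettl3 averaged 5.34 ± 0.449 CPM in Mettl3 KD cells, 15.4 ± 1.02 CPM in Mettl14 KD cells and 14.9 ± 1.02 CPM in scramble cells (SD). Mettl14 averaged 29.3 ± 1.02 CPM in Mettl3 KD cells, 14.7 ± 0.720 CPM in Mettl14 KD cells and 25.2 ± 1.70 CPM in scramble cells (SD).

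Scramble replicate 2 stood apart. It had the lowest level of all 11 libraries for 32 of the 43 tested members. It carried far more RNA of other tissues' markers than any other library: the 6 lung epithelium markers summed to 92.9 CPM there, against 1.61 to 3.44 CPM in Mettl3 KD, 1.17 to 2.96 CPM in Mettl14 KD and 1.74 CPM in the lowest scramble library, led by Sftpc (36.1 CPM) and Scgb1a1 (34.2 CPM). The 5 blood and immune markers summed to 43.9 CPM in it and to at most 3.21 CPM in any other library. The 4 endothelial and mesenchymal markers summed to 17.5 CPM in it and to at most 3.88 CPM elsewhere. None of these 15 markers was at 0 in every library. The muscle list of 7 genes peaked at 10.8 CPM in Mettl3 KD replicate 2, mostly from Acta1 (7.71 CPM), and summed to 0.382 to 0.988 CPM in Mettl14 KD and to 0.268 to 1.48 CPM in scramble libraries. The 11 alpha cell markers summed to 45204 to 47087 CPM in Mettl3 KD, 50365 to 52386 CPM in Mettl14 KD and 41420.5 to 48993 CPM in scramble. The 7 beta cell markers summed to 50.7 to 54.7 CPM in Mettl3 KD, 49.9 to 55.9 CPM in Mettl14 KD and 55.8 to 75.3 CPM in scramble. Scramble replicate 2 was the highest, against at most 57.1 CPM in any other library. Most of these sums was Nkx6-1, at 48.7 to 73.5 CPM over the 11 libraries, while Ins1 was at 0 in 10 of 11. The part of these differences in the results was not tested, so results are given with and without scramble replicate 2. In bulk RNA, fewer cells of a type and less RNA per cell cannot be told apart.

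Most nuclear subunits of complexes II to V were somewhat more abundant after either knockdown. In Mettl3 KD against scramble, 24 of the 43 tested members rose and 1, Cox6a1, fell (edgeR quasi-likelihood test, adjusted p under 0.05 over all 14133 genes tested), where 15.5% of all genes tested rose and 15.8% fell (31.3% in either direction). The members' median log2 fold change was 0.20, that of all genes was 0.00, and 41 of 43 were above 0. In Mettl14 KD against scramble, 23 of 43 rose and none fell, where 10.1% of all genes rose and 10.8% fell (20.9% in either direction). An unadjusted p under 0.05 was found for 30 members. The share of all genes at that unadjusted threshold was not counted, here or for the unadjusted counts below. It is at least the 31.3% in Mettl3 KD and 20.9% in Mettl14 KD called after adjustment. No excess of members can therefore be read from the unadjusted counts. DESeq2 called 27 members higher and none lower, and over all genes it called 2467, of which 1225 were higher. The members' median log2 fold change was again 0.20, and 42 of 43 were above 0. The changes were small, with log2 fold changes between -0.21 and 0.41 in Mettl3 KD and between -0.02 and 0.37 in Mettl14 KD. All 4 knockdown libraries lay above all 3 scramble libraries for 30 members in Mettl3 KD, where 17.5% of all genes did, and for 28 in Mettl14 KD, where 14.4% did.

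**Figure D1:**
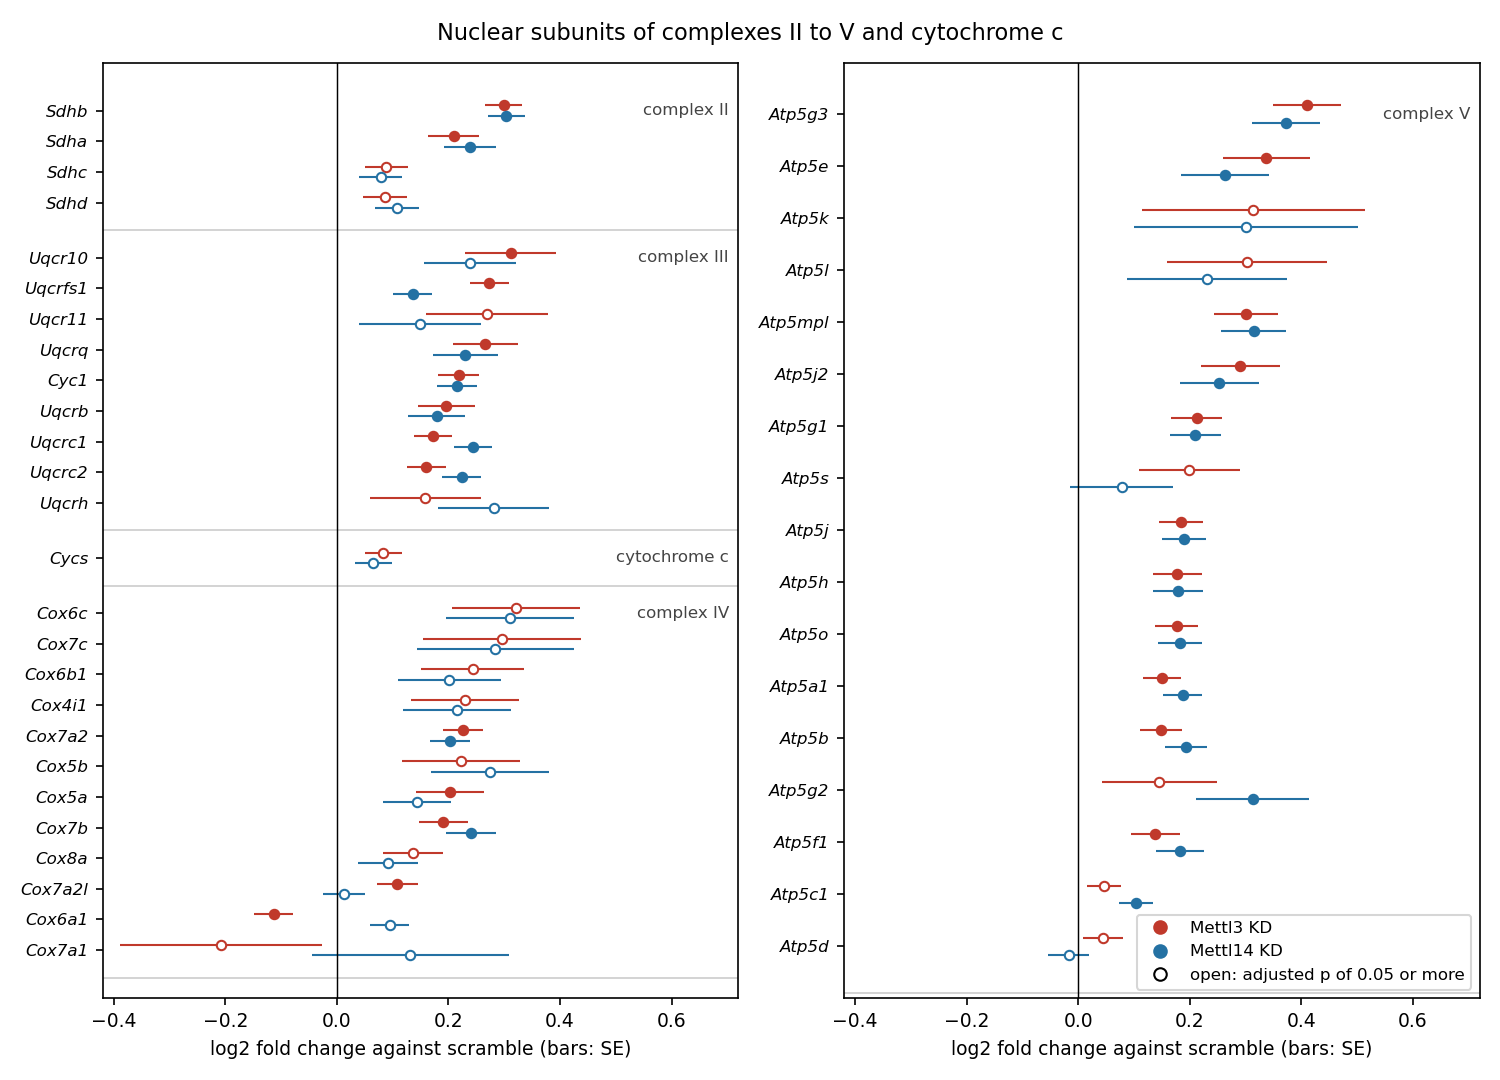
Log2 fold change against scramble (x axis) of the 43 tested members, by complex, in Mettl3 KD (red, upper point of each pair) and Mettl14 KD (blue, lower point), with SE bars; filled points have an edgeR adjusted p under 0.05. Of the 43, 41 values in Mettl3 KD and 42 in Mettl14 KD lie above 0 (36 and 40 when library factors are taken from short transcripts), and Cox6a1 is the 1 filled point below 0.

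Without scramble replicate 2 the fold changes shrank and the calls rose in number. In Mettl3 KD 28 members then rose and 1 fell, with a median log2 fold change of 0.13, where 15.3% of all genes rose and 15.1% fell. In Mettl14 KD 26 rose and none fell, with a median of 0.14, where 9.34% rose and 10.1% fell. Scaling changed the calls too. With TMM factors taken only from genes whose longest transcript is under 1000 bases, the median of all genes fell by 0.097 (log2) in Mettl3 KD and by 0.069 in Mettl14 KD, and the all-gene split became 659 higher of 4483 called in Mettl3 KD, against 2184 of 4420 before, and 426 of 2701 in Mettl14 KD, against 1424 of 2956. Under that scaling 14 members rose and 1 fell in Mettl3 KD, where 4.66% of all genes rose and 27.1% fell, and 20 rose and none fell in Mettl14 KD, where 3.01% rose and 16.1% fell. Of those called higher, 12 in Mettl3 KD and 17 in Mettl14 KD were also called before, and Cox6b1 and Cox6c were the 2 added in Mettl3 KD. The members' medians were then 0.10 in Mettl3 KD and 0.14 in Mettl14 KD, with 36 of 43 above 0 in Mettl3 KD and 40 in Mettl14 KD. The medians of all genes were then -0.10 in Mettl3 KD and -0.069 in Mettl14 KD, so members kept about the same distance from them. Of the 43 members, 19 have a longest transcript under 1000 bases and were among the genes that set these factors. The scaling is thus no independent check. Calls lost under it, here and below, came with a shift of all genes. With short-transcript factors and scramble replicate 2 left out, a setting chosen after seeing the data, 12 rose and 1 fell in Mettl3 KD, where 7.31% of all genes rose and 2860 of 14316 fell, and 18 rose and none fell in Mettl14 KD, where 4.39% rose and 1716 of 14316 fell. Of the members called higher, 11 in each knockdown held that call under all 18 alternatives tried, and 5 did in both: Sdhb, Cyc1, Cox7a2, Atp5g3 and Atp5mpl. How many of all genes called higher held under the same alternatives was not counted. Whether members kept their calls more often than other genes is therefore not known.

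**Figure D2:**
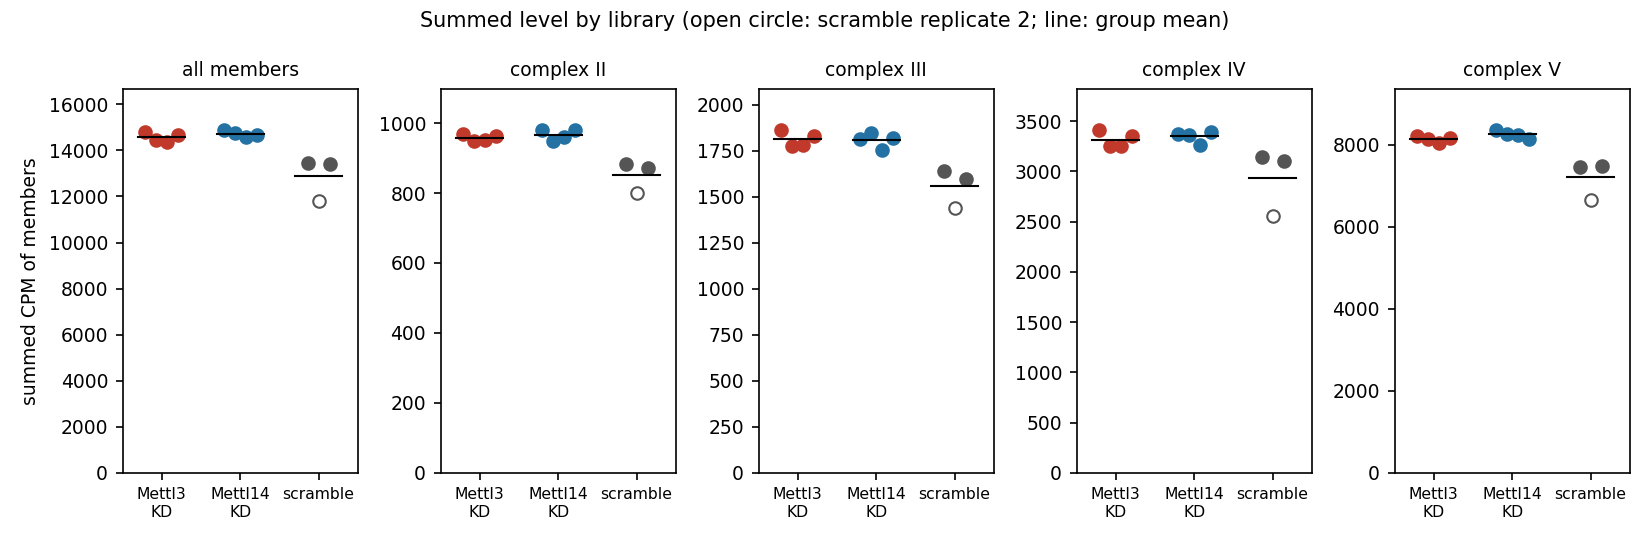
Summed CPM of the members (y axis) in each library of Mettl3 KD (red), Mettl14 KD (blue) and scramble (grey; scramble replicate 2 is the open circle), for all members and for complexes II, III, IV and V; lines are group means. Every knockdown library lies above every scramble library in each panel, and scramble replicate 2 is the lowest in each.

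Summed over all 50 rows, members took 14378 to 14797 CPM in Mettl3 KD, 14569 to 14881 CPM in Mettl14 KD, and 13457, 11782.5 and 13392 CPM in scramble replicates 1, 2 and 3. All knockdown libraries lay above scramble, as they did on library totals without TMM factors (14450 to 14751 CPM in Mettl3 KD, 14520 to 14733 CPM in Mettl14 KD and 12037 to 13351 CPM in scramble). The mean sum was 13.2% higher in Mettl3 KD and 14.3% higher in Mettl14 KD than in scramble, or 8.57% in Mettl3 KD and 9.68% in Mettl14 KD without scramble replicate 2. By complex, complex III had the widest gap in Mettl3 KD (16.3%, or 11.98% without that library) and in Mettl14 KD (16.1%, or 11.75%). The gap of complex II was 12.6% in Mettl3 KD and 13.7% in Mettl14 KD (9.30% in Mettl3 KD and 10.3% in Mettl14 KD without it). Complex IV moved most with that library, at 13.0% in Mettl3 KD and 14.1% in Mettl14 KD with it, and 6.15% in Mettl3 KD and 7.19% in Mettl14 KD without it. Complex V held most of the members' counts. Its sum of 8136 ± 76.8 CPM in Mettl3 KD, 8251 ± 86.2 CPM in Mettl14 KD and 7200 ± 470 CPM in scramble cells (SD) gave gaps of 13.0% in Mettl3 KD and 14.6% in Mettl14 KD (8.89% in Mettl3 KD and 10.4% in Mettl14 KD without it).

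In complex II, succinate dehydrogenase, the 2 catalytic subunits rose in both knockdowns and the 2 membrane anchors passed the test in neither. Sdhb, the iron-sulphur subunit, had 177, 177, 176 and 177 CPM in Mettl3 KD cells, 177, 171, 176 and 184 CPM in Mettl14 KD cells, and 139, 148 and 143 CPM in scramble cells. All 8 knockdown libraries lay above the scramble libraries, and scramble replicate 2 was the highest of the 3. Its log2 fold change was 0.30 ± 0.033 (adjusted p = 9.37e-07) in Mettl3 KD and 0.30 ± 0.033 (adjusted p = 1.21e-06) in Mettl14 KD, where values here and below are ± SE with edgeR's adjusted p. With scramble replicate 2 left out it was 0.32 (adjusted p = 4.23e-10) in Mettl3 KD and 0.33 (adjusted p = 5.03e-10) in Mettl14 KD. Sdha, the flavoprotein that holds the succinate site, had 364, 362, 362 and 374 CPM in Mettl3 KD cells, 377, 377, 369 and 369 CPM in Mettl14 KD cells, and 333, 281 and 335 CPM in scramble cells. The knockdown libraries again lay above scramble, and scramble replicate 2 lay lowest by far. The log2 fold change was 0.21 ± 0.046 (adjusted p = 0.00194) in Mettl3 KD and 0.24 ± 0.046 (adjusted p = 0.00117) in Mettl14 KD, or 0.13 (adjusted p = 0.000402) in Mettl3 KD and 0.16 (adjusted p = 5.2e-05) in Mettl14 KD when that library was left out.

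The anchors Sdhc and Sdhd hold the enzyme's haem and ubiquinone site in the inner membrane. Sdhc had 241, 235, 237 and 236 CPM in Mettl3 KD cells, 245, 222, 235 and 240.5 CPM in Mettl14 KD cells, and 237, 215 and 217 CPM in scramble cells, and both knockdowns overlapped scramble. Sdhd had 187, 174, 176 and 176 CPM in Mettl3 KD cells, 179.7, 178, 180.1 and 185 CPM in Mettl14 KD cells, and 173, 155 and 175 CPM in scramble cells, and Mettl14 KD alone lay clear of scramble. Their log2 fold changes were 0.09 ± 0.038 (adjusted p = 0.0847) and 0.09 ± 0.039 (adjusted p = 0.101) in Mettl3 KD, and 0.08 ± 0.038 (adjusted p = 0.155) and 0.11 ± 0.039 (adjusted p = 0.0561) in Mettl14 KD. Those of Sdhd without scramble replicate 2 were 0.03 (adjusted p = 0.47) in Mettl3 KD and 0.06 (adjusted p = 0.252) in Mettl14 KD. In Mettl3 KD both changed sign under the short-transcript scaling, to -0.0086 for Sdhc and -0.0096 for Sdhd.

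In complex III, the cytochrome bc1 complex, 7 of 9 members rose in Mettl3 KD and 6 of 9 in Mettl14 KD, with a median log2 fold change of 0.22 in both (0.14 in Mettl3 KD and 0.15 in Mettl14 KD without scramble replicate 2). The electron-carrying and core subunits Cyc1, Uqcrfs1, Uqcrc1 and Uqcrc2 all rose in both. Cyc1, cytochrome c1, which hands electrons to cytochrome c, had 348, 320.0, 326 and 339 CPM in Mettl3 KD cells, 333, 323, 326 and 348 CPM in Mettl14 KD cells, and 292, 279 and 289 CPM in scramble cells. Every knockdown library lay above every scramble library. The log2 fold change was 0.22 ± 0.036 (adjusted p = 0.000103) in Mettl3 KD and 0.22 ± 0.036 (adjusted p = 0.000218) in Mettl14 KD, and 0.20 in each without scramble replicate 2.

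Uqcrfs1, the Rieske iron-sulphur protein that takes the electron from ubiquinol, rose more in Mettl3 KD. It had 221, 219, 219 and 218 CPM in Mettl3 KD cells, 205, 195, 199 and 198 CPM in Mettl14 KD cells, and 171, 191 and 183 CPM in scramble cells. The 3 groups did not overlap, with Mettl3 KD highest, Mettl14 KD between and scramble lowest. The log2 fold change was 0.27 ± 0.035 (adjusted p = 6.37e-06) in Mettl3 KD and 0.14 ± 0.035 (adjusted p = 0.00887) in Mettl14 KD. The Mettl14 KD call was lost without scramble replicate 1 (log2 fold change 0.09, adjusted p = 0.0607) and under the short-transcript scaling (0.06, adjusted p = 0.395).

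The core proteins Uqcrc1 and Uqcrc2, which form the matrix-facing part of the complex, rose in both knockdowns, with higher means in Mettl14 KD. Uqcrc1 had 257, 251, 253 and 255 CPM in Mettl3 KD cells, 266, 271, 256 and 275 CPM in Mettl14 KD cells, and 224, 217 and 236 CPM in scramble cells. Uqcrc2 had 234, 230.1, 235 and 234 CPM in Mettl3 KD cells, 242, 251, 239 and 243 CPM in Mettl14 KD cells, and 213, 196 and 217 CPM in scramble cells. For both genes all 8 knockdown libraries lay above scramble, and the knockdowns overlapped for Uqcrc1 and not for Uqcrc2. Log2 fold changes were 0.17 ± 0.034 (adjusted p = 0.000604) in Mettl3 KD and 0.24 ± 0.034 (adjusted p = 2.83e-05) in Mettl14 KD for Uqcrc1, and 0.16 ± 0.035 (adjusted p = 0.00137) in Mettl3 KD and 0.22 ± 0.035 (adjusted p = 9.42e-05) in Mettl14 KD for Uqcrc2. In Mettl3 KD both calls were lost under the short-transcript scaling.

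The 5 small subunits of complex III are Uqcrb, Uqcrq, Uqcrh, Uqcr10 and Uqcr11. Uqcrb and Uqcrq, which sit at the membrane domain, rose in both knockdowns, Uqcr10 rose in Mettl3 KD, and Uqcrh and Uqcr11 passed in neither. Log2 fold changes in Mettl3 KD were 0.20 ± 0.051 (adjusted p = 0.00775) for Uqcrb, 0.27 ± 0.059 (adjusted p = 0.00326) for Uqcrq and 0.31 ± 0.082 (adjusted p = 0.0165) for Uqcr10. In Mettl14 KD they were 0.18 ± 0.051 (adjusted p = 0.0196) for Uqcrb, 0.23 ± 0.059 (adjusted p = 0.0128) for Uqcrq and 0.24 ± 0.082 (adjusted p = 0.0679) for Uqcr10. The Mettl14 KD call of Uqcrb was lost without scramble replicate 3 (0.18, adjusted p = 0.0634) or without Mettl14 KD replicate 2 (0.15, adjusted p = 0.0596), and when only the 2 groups compared were fitted (adjusted p = 0.0688). Under the short-transcript scaling Uqcrb passed in neither knockdown, at 0.10 (adjusted p = 0.0895) in Mettl3 KD and 0.11 (adjusted p = 0.0816) in Mettl14 KD. It had 0.13 (adjusted p = 0.00975) in Mettl3 KD and 0.11 (adjusted p = 0.0362) in Mettl14 KD without scramble replicate 2. The values in Mettl14 KD were then 0.15 (adjusted p = 0.00491) for Uqcrq and 0.15 (adjusted p = 0.155) for Uqcr10. Uqcrh, the hinge protein that contacts cytochrome c1, had 214, 198, 199 and 208 CPM in Mettl3 KD cells, 221, 238, 218 and 216 CPM in Mettl14 KD cells, and 206, 148 and 196 CPM in scramble cells. Scramble replicate 2 was far below the rest for it, and without that library Uqcrh rose in Mettl14 KD, at 0.15 (adjusted p = 0.00437), and stayed short of the test in Mettl3 KD, at 0.03 (adjusted p = 0.621). Uqcr11 had log2 fold changes of 0.27 ± 0.11 (adjusted p = 0.0994) in Mettl3 KD and 0.15 ± 0.11 (adjusted p = 0.39) in Mettl14 KD. They were 0.13 (adjusted p = 0.106) in Mettl3 KD and 0.01 (adjusted p = 0.908) in Mettl14 KD without scramble replicate 2. Its scramble libraries ranged between 101 and 148 CPM.

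Cycs, cytochrome c itself, the soluble carrier between complexes III and IV, passed the test in neither knockdown. It had 346, 359.9, 361 and 352 CPM in Mettl3 KD cells, 361, 333, 358 and 350.3 CPM in Mettl14 KD cells, and 328, 334 and 343 CPM in scramble cells. Mettl3 KD lay above scramble and Mettl14 KD overlapped it. Log2 fold changes were 0.08 ± 0.033 (adjusted p = 0.0628) in Mettl3 KD and 0.07 ± 0.033 (adjusted p = 0.177) in Mettl14 KD. Without scramble replicate 2 it passed the test in Mettl3 KD, at 0.08 (adjusted p = 0.0492). Under the short-transcript scaling it was slightly below 0 in both, at -0.015 in Mettl3 KD and -0.0051 in Mettl14 KD.

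**Figure D3:**
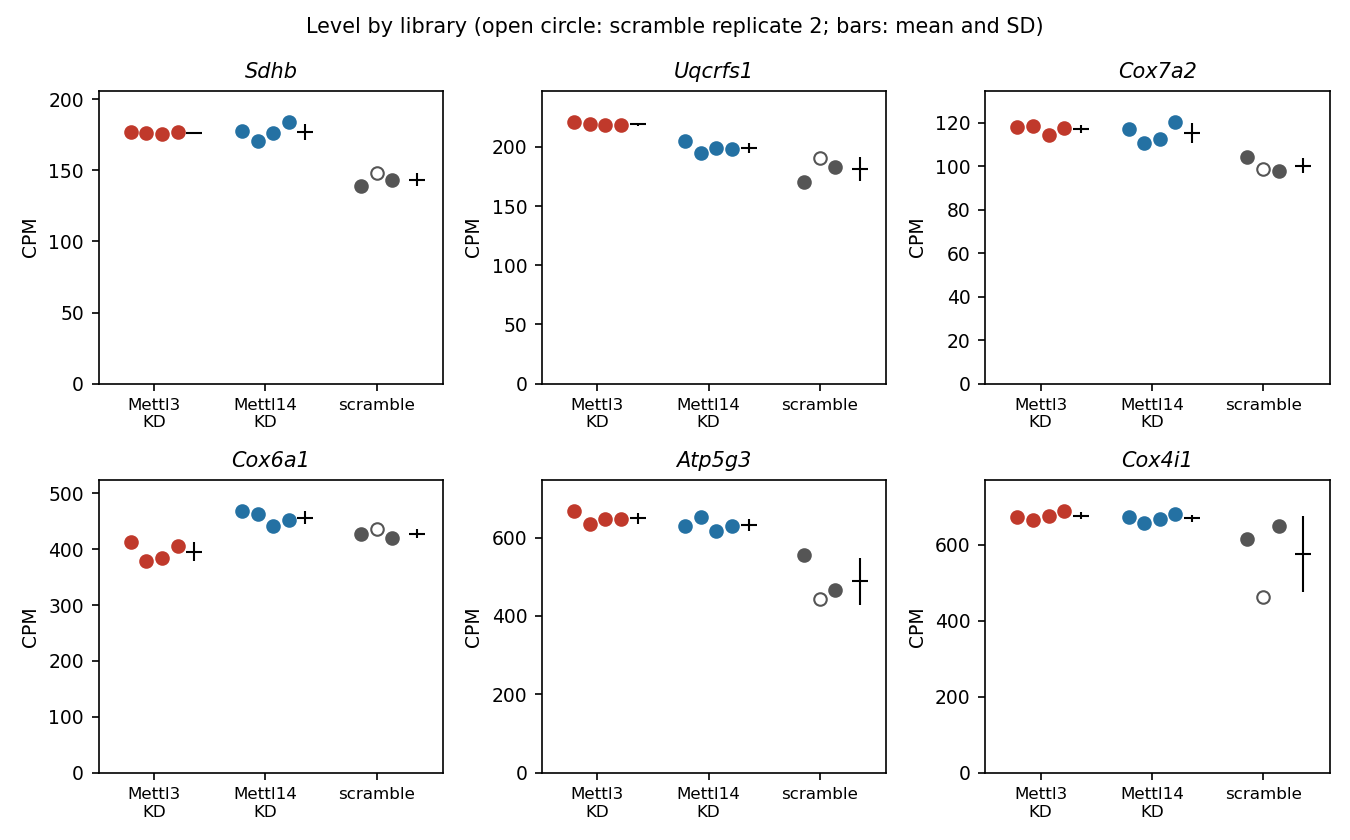
CPM (y axis) of 6 members in each library of Mettl3 KD (red), Mettl14 KD (blue) and scramble (grey; scramble replicate 2 open), with the mean and SD beside each group. Sdhb, Uqcrfs1, Cox7a2 and Atp5g3 lie above scramble in all 8 knockdown libraries, Cox6a1 lies below scramble in Mettl3 KD and above it in Mettl14 KD, and scramble replicate 2 is well below the other libraries for Cox4i1.

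In complex IV, cytochrome c oxidase, 12 of 18 rows were tested. In Mettl3 KD 4 rose (Cox7a2, Cox7b, Cox5a and Cox7a2l), Cox6a1 fell and 7 passed in neither direction; in Mettl14 KD 2 rose (Cox7a2 and Cox7b) and none fell, with 6 of the 12 at an unadjusted p under 0.05. The median log2 fold change was 0.21 in Mettl3 KD and 0.20 in Mettl14 KD, or 0.12 in Mettl3 KD and 0.09 in Mettl14 KD without scramble replicate 2, when 6 rose in each knockdown. Cox7a2, the widely expressed form of subunit VIIa, had 118, 119, 114 and 118 CPM in Mettl3 KD cells, 117, 110.5, 113 and 120.4 CPM in Mettl14 KD cells, and 104, 98.7 and 97.7 CPM in scramble cells. All knockdown libraries lay above scramble, and scramble replicate 2 did not stand out. Log2 fold changes were 0.23 ± 0.036 (adjusted p = 7.46e-05) in Mettl3 KD and 0.20 ± 0.036 (adjusted p = 0.000426) in Mettl14 KD. Cox7b, another small subunit of the membrane part, had 207, 201, 189 and 202 CPM in Mettl3 KD cells, 214, 205, 197 and 210.0 CPM in Mettl14 KD cells, and 180.0, 160.1 and 184 CPM in scramble cells. Both knockdowns again lay clear of scramble, at 0.19 ± 0.045 (adjusted p = 0.00285) in Mettl3 KD, a call lost under the short-transcript scaling, and 0.24 ± 0.045 (adjusted p = 0.00075) in Mettl14 KD.

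Cox6a1, the widely expressed form of subunit VIa, which borders the dimer interface, was the exception. It had 414, 378, 384 and 405 CPM in Mettl3 KD cells, 468, 464, 442 and 452 CPM in Mettl14 KD cells, and 427, 436 and 420.0 CPM in scramble cells. All 4 Mettl3 KD libraries lay below scramble and all 4 Mettl14 KD libraries above it. Its log2 fold change was -0.11 ± 0.035 (adjusted p = 0.0174) in Mettl3 KD and 0.09 ± 0.035 (adjusted p = 0.0607) in Mettl14 KD. The fall in Mettl3 KD was not called without Mettl3 KD replicate 2 (-0.09, adjusted p = 0.0673) or replicate 3 (-0.10, adjusted p = 0.0592). The value in Mettl14 KD passed without scramble replicate 2, at 0.11 (adjusted p = 0.0135), and was 0.02 under the short-transcript scaling.

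For several other complex IV subunits, scramble replicate 2 lay far below the rest. Cox4i1, the regulatory subunit IV, had 674, 667, 677 and 689 CPM in Mettl3 KD cells, 675, 658, 667 and 680.4 CPM in Mettl14 KD cells, and 616, 464 and 651 CPM in scramble cells. All knockdown libraries lay above scramble, and the log2 fold changes of 0.23 ± 0.096 (adjusted p = 0.107) in Mettl3 KD and 0.22 ± 0.096 (adjusted p = 0.156) in Mettl14 KD fell short of the threshold. Without that library they were smaller and passed, at 0.10 (adjusted p = 0.00833) in Mettl3 KD and 0.08 (adjusted p = 0.037) in Mettl14 KD. Cox7c, the small subunit VIIc, had log2 fold changes of 0.30 ± 0.14 (adjusted p = 0.154) in Mettl3 KD and 0.28 ± 0.14 (adjusted p = 0.202) in Mettl14 KD with all libraries and 0.11 (adjusted p = 0.00683) in Mettl3 KD and 0.10 (adjusted p = 0.0248) in Mettl14 KD without that one. Cox6b1, which faces the intermembrane space where cytochrome c docks, had 268, 251, 258 and 265 CPM in Mettl3 KD cells, 252, 271, 242 and 249 CPM in Mettl14 KD cells, and 241, 181 and 238 CPM in scramble cells. It had log2 fold changes of 0.24 ± 0.092 (adjusted p = 0.0753) in Mettl3 KD and 0.20 ± 0.092 (adjusted p = 0.161) in Mettl14 KD, or 0.12 (adjusted p = 0.00826) in Mettl3 KD and 0.08 (adjusted p = 0.117) in Mettl14 KD. Cox5b, the zinc-binding subunit, had 0.22 ± 0.11 (adjusted p = 0.154) in Mettl3 KD and 0.27 ± 0.11 (adjusted p = 0.108) in Mettl14 KD, or 0.08 (adjusted p = 0.0637) in Mettl3 KD and 0.13 (adjusted p = 0.0035) in Mettl14 KD. Cox6c had 0.32 ± 0.11 (adjusted p = 0.0659) in Mettl3 KD and 0.31 ± 0.11 (adjusted p = 0.0937) in Mettl14 KD, or 0.18 (adjusted p = 0.0787) in Mettl3 KD and 0.17 (adjusted p = 0.124) in Mettl14 KD without it. It passed in both under the short-transcript scaling with all libraries. Cox5a, a subunit on the matrix side, rose in Mettl3 KD at 0.20 ± 0.061 (adjusted p = 0.0235) and had 0.14 ± 0.061 (adjusted p = 0.119) in Mettl14 KD. The call of Cox5a was lost without scramble replicate 2, at 0.13 (adjusted p = 0.0846), without Mettl3 KD replicate 1 (0.17, adjusted p = 0.0587) or replicate 2 (0.19, adjusted p = 0.0563), and under the short-transcript scaling.

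The muscle, lung and testis forms of complex IV subunits were at or near 0 counts, apart from Cox7a1. Per kilobase of main transcript, mean levels of Cox4i1 were 885 in Mettl3 KD, 876 in Mettl14 KD and 754 in scramble cells, in CPM per kilobase. Its partner Cox4i2, the form of lung known for its oxygen-responsive expression, had 3 counts in all 11 libraries together, of which 2 were in scramble replicate 2. Cox6a2, the heart and muscle form of VIa, had 73 counts in all, between 1 and 12 a library, against a level of Cox6a1 of 692 in Mettl3 KD, 799.7 in Mettl14 KD and 749 in scramble cells (CPM per kilobase). The testis form Cox6b2 had 6 counts, Cox7b2 had 4, the muscle form Cox8b 4 and Cox8c 0. A sum of 0 counts allows up to 3 counts over the 11 libraries, for counting error only. Cox8a, the widely expressed form of subunit VIII, had 514, 438, 466 and 478 CPM in Mettl3 KD cells, 469, 444, 457 and 469 CPM in Mettl14 KD cells, and 452, 394 and 448 CPM in scramble cells. Replicate 2 of each knockdown lay within the scramble range, and log2 fold changes were 0.14 ± 0.054 (adjusted p = 0.0686) in Mettl3 KD and 0.09 ± 0.054 (adjusted p = 0.255) in Mettl14 KD. They were 0.07 (adjusted p = 0.297) in Mettl3 KD and 0.03 (adjusted p = 0.749) in Mettl14 KD without scramble replicate 2.

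In the VIIa set, the muscle form Cox7a1 was low and Cox7a2 and Cox7a2l were not. Cox7a1 had 4.48, 3.58, 2.68 and 3.83 CPM in Mettl3 KD cells, 4.93, 3.26, 4.64 and 5.56 CPM in Mettl14 KD cells, and 4.89, 3.80 and 3.90 CPM in scramble cells. The groups overlapped, and the log2 fold changes of -0.21 ± 0.18 (adjusted p = 0.417) in Mettl3 KD and 0.13 ± 0.18 (adjusted p = 0.644) in Mettl14 KD had the widest SE of complex IV. Cox7a2l, whose product helps to join complexes III and IV into supercomplexes, had 110.2, 100.3, 102 and 102 CPM in Mettl3 KD cells, 97.6, 98.5, 96.1 and 96.1 CPM in Mettl14 KD cells, and 92.5, 99.7 and 96.6 CPM in scramble cells. Mettl3 KD lay above all scramble libraries and Mettl14 KD overlapped them. Log2 fold changes were 0.11 ± 0.037 (adjusted p = 0.0315) in Mettl3 KD and 0.01 ± 0.037 (adjusted p = 0.857) in Mettl14 KD. The Mettl3 KD call was lost without scramble replicate 1 (0.08, adjusted p = 0.151) or Mettl3 KD replicate 1 (0.08, adjusted p = 0.118), under the short-transcript scaling (0.01, adjusted p = 0.914), and when only the 2 groups compared were fitted (adjusted p = 0.065). In Mettl14 KD the value was below 0 without scramble replicate 1 and under the short-transcript scaling (-0.016 in the first and -0.059 in the second case).

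In complex V 17 of 18 rows were tested. In Mettl3 KD 11 rose and none fell, with 12 at an unadjusted p under 0.05, and in Mettl14 KD 13 rose and none fell, with 13 at an unadjusted p under 0.05. The median log2 fold change was 0.18 in Mettl3 KD and 0.19 in Mettl14 KD, or 0.12 in Mettl3 KD and 0.14 in Mettl14 KD without scramble replicate 2. In the catalytic F1 head, Atp5b, the beta subunit that carries the catalytic sites, had 2778, 2873, 2784 and 2839.7 CPM in Mettl3 KD cells, 2945, 2878, 2956 and 2851 CPM in Mettl14 KD cells, and 2590.0, 2345 and 2694 CPM in scramble cells. Atp5a1, the alpha subunit beside it, had 1603, 1604, 1543 and 1566 CPM in Mettl3 KD cells, 1624, 1603, 1654 and 1602 CPM in Mettl14 KD cells, and 1444, 1336 and 1489 CPM in scramble cells. All knockdown libraries lay above scramble for both. Log2 fold changes were 0.15 ± 0.038 (adjusted p = 0.00517) in Mettl3 KD and 0.19 ± 0.038 (adjusted p = 0.00103) in Mettl14 KD for Atp5b and 0.15 ± 0.035 (adjusted p = 0.00235) in Mettl3 KD and 0.19 ± 0.035 (adjusted p = 0.000588) in Mettl14 KD for Atp5a1. The Mettl3 KD calls of both were lost under the short-transcript scaling, and without scramble replicate 2 the Mettl3 KD value of Atp5b was 0.09 (adjusted p = 0.0059).

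The central stalk was less uniform. Atp5c1, the gamma subunit that turns within the head, had 0.05 ± 0.030 (adjusted p = 0.269) in Mettl3 KD and rose in Mettl14 KD, at 0.10 ± 0.030 (adjusted p = 0.0184). That call was lost without scramble replicate 1 (0.09, adjusted p = 0.0688), when only the 2 groups compared were fitted (adjusted p = 0.0546) and under the short-transcript scaling (0.03, adjusted p = 0.621). Atp5d, the delta subunit, had 0.04 ± 0.037 (adjusted p = 0.387) in Mettl3 KD and -0.02 ± 0.037 (adjusted p = 0.781) in Mettl14 KD, the lowest value of the complex in each. Atp5e, the epsilon subunit, had 120.0, 109, 114 and 115 CPM in Mettl3 KD cells, 115, 112, 99.5 and 109 CPM in Mettl14 KD cells, and 101, 78.1 and 92.7 CPM in scramble cells. Its log2 fold change was 0.34 ± 0.078 (adjusted p = 0.00773) in Mettl3 KD and 0.26 ± 0.078 (adjusted p = 0.0376) in Mettl14 KD, where replicate 3 overlapped scramble replicate 1. The Mettl14 KD call of Atp5e was close to the threshold and was lost in 6 of the fits that left out 1 library, namely scramble replicate 3, Mettl3 KD replicates 3 and 4, and Mettl14 KD replicates 1, 2 and 4, at log2 fold changes between 0.24 and 0.29 and adjusted p between 0.0507 and 0.0854, and when only the 2 groups compared were fitted (adjusted p = 0.0853). The Mettl14 KD value without scramble replicate 2 was 0.17 (adjusted p = 0.0321).

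The c ring, which turns as protons pass, is built from 3 genes for 1 mature protein. With all libraries Atp5g3 had the largest log2 fold change of all members in Mettl3 KD and in Mettl14 KD. That of Sdhb, at 0.33, was larger in Mettl14 KD without scramble replicate 2. Atp5g3 had 668, 634, 647 and 648 CPM in Mettl3 KD cells, 629.7, 652, 617 and 629 CPM in Mettl14 KD cells, and 557, 443 and 466 CPM in scramble cells. Both knockdowns lay clear of scramble, and scramble replicate 1 was the highest scramble library. The fold change on the log2 scale was 0.41 ± 0.061 (adjusted p = 0.00027) in Mettl3 KD and 0.37 ± 0.061 (adjusted p = 0.000992) in Mettl14 KD, or 0.34 (adjusted p = 0.00265) in Mettl3 KD and 0.31 (adjusted p = 0.00796) in Mettl14 KD with scramble replicate 2 left out. Atp5g1 rose by 0.21 ± 0.046 (adjusted p = 0.00172) in Mettl3 KD and 0.21 ± 0.046 (adjusted p = 0.00318) in Mettl14 KD, and the Mettl14 KD call was lost without scramble replicate 2, at 0.19 (adjusted p = 0.0584). The level of Atp5g2 was much lower, at 21.4 in Mettl3 KD, 24.1 in Mettl14 KD and 19.3 in scramble cells, against 898 in Mettl3 KD, 874 in Mettl14 KD and 675 in scramble cells for Atp5g3 (CPM per kilobase). Atp5g2 had 0.15 ± 0.10 (adjusted p = 0.312) in Mettl3 KD and 0.31 ± 0.10 (adjusted p = 0.04) in Mettl14 KD. The Mettl14 KD call was lost in 9 of the 11 fits that left out 1 library, all but those without scramble replicate 3 or Mettl14 KD replicate 4, with log2 fold changes between 0.23 and 0.34 and adjusted p between 0.0538 and 0.109, when only the 2 groups compared were fitted (adjusted p = 0.118) and under the short-transcript scaling. How kallisto shared reads between these related transcripts, or with pseudogenes of any member that carry other names, was not examined here.

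The 4 tested peripheral stalk subunits, which hold the head still, moved together in size: Atp5o, Atp5f1, Atp5h and Atp5j rose in both knockdowns, with log2 fold changes between 0.14 and 0.18 in Mettl3 KD and between 0.18 and 0.19 in Mettl14 KD. Atp5j had 202, 199.97, 197 and 202 CPM in Mettl3 KD cells, 201, 207, 193 and 203 CPM in Mettl14 KD cells, and 184, 162 and 183 CPM in scramble cells. Both knockdowns lay clear of scramble, at 0.18 ± 0.040 (adjusted p = 0.00123) in Mettl3 KD and 0.19 ± 0.040 (adjusted p = 0.00167) in Mettl14 KD. The Mettl3 KD call of Atp5f1 was lost without scramble replicate 2, at 0.07 (adjusted p = 0.0665), or without Mettl3 KD replicate 4 (0.13, adjusted p = 0.0519), and under the short-transcript scaling none of the 4 passed in Mettl3 KD, and Atp5h and Atp5o did not in Mettl14 KD (adjusted p = 0.0679 and 0.0651). The log2 fold change of Atp5h without scramble replicate 2 was 0.11 (adjusted p = 0.00605) in Mettl3 KD and 0.11 (adjusted p = 0.00863) in Mettl14 KD, and that of Atp5f1 in Mettl14 KD was 0.11 (adjusted p = 0.0044).

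Among the small membrane subunits, Atp5mpl had 103, 95.4, 97.4 and 109 CPM in Mettl3 KD cells, 105, 103, 93.9 and 107 CPM in Mettl14 KD cells, and 89.0, 79.1 and 78.4 CPM in scramble cells. All knockdown libraries lay above scramble, at 0.30 ± 0.058 (adjusted p = 0.00105) in Mettl3 KD and 0.31 ± 0.058 (adjusted p = 0.0013) in Mettl14 KD. Atp5j2, subunit f, rose in both, at 0.29 ± 0.071 (adjusted p = 0.00974) in Mettl3 KD and 0.25 ± 0.071 (adjusted p = 0.0281) in Mettl14 KD. The Mettl14 KD call was lost without Mettl14 KD replicate 1, 2 or 4 (0.24, 0.25 and 0.26, adjusted p between 0.0538 and 0.0627) and when only the 2 groups compared were fitted (adjusted p = 0.0797). It had 0.18 (adjusted p = 1.63e-05) in Mettl3 KD and 0.15 (adjusted p = 0.000682) in Mettl14 KD without scramble replicate 2. Atp5k and Atp5l, subunits e and g, which take part in ATP synthase dimers, did not pass, at 0.31 ± 0.20 (adjusted p = 0.282) and 0.30 ± 0.14 (adjusted p = 0.152) in Mettl3 KD and 0.30 ± 0.20 (adjusted p = 0.341) and 0.23 ± 0.14 (adjusted p = 0.307) in Mettl14 KD. Atp5l passed in Mettl3 KD without scramble replicate 2, at 0.12 (adjusted p = 0.0112), and had 0.04 (adjusted p = 0.442) in Mettl14 KD. Atp5k then had 0.08 (adjusted p = 0.651) in Mettl3 KD and 0.07 (adjusted p = 0.755) in Mettl14 KD. By library, Atp5k had 64.3, 57.6, 63.4 and 58.5 CPM in Mettl3 KD cells, 60.7, 66.5, 52.3 and 62.3 CPM in Mettl14 KD cells, and 63.4, 31.2 and 51.8 CPM in scramble cells. Its scramble libraries alone ranged between 31.2 and 63.4 CPM, which is wider than the distance between the groups. Atp5s, a matrix factor that is not a structural subunit, had 0.20 ± 0.091 (adjusted p = 0.102) in Mettl3 KD and 0.08 ± 0.092 (adjusted p = 0.595) in Mettl14 KD, and passed in Mettl3 KD without scramble replicate 2, at 0.28 (adjusted p = 0.0336).

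Set directly against each other, the knockdowns differed for 2 of the 43 members. Uqcrfs1 was higher in Mettl3 KD than in Mettl14 KD and Cox6a1 was lower, where 3.66% of all genes tested were higher and 4.44% lower (8.10% in either direction). The log2 difference was 0.14 ± 0.032 (adjusted p = 0.0109) for Uqcrfs1 and -0.21 ± 0.032 (adjusted p = 0.000333) for Cox6a1. Uqcrfs1 averaged 219 ± 1.32 CPM in Mettl3 KD cells, 199 ± 4.21 CPM in Mettl14 KD cells and 181 ± 10.2 CPM in scramble cells and Cox6a1 averaged 395 ± 16.8 CPM in Mettl3 KD cells, 457 ± 11.7 CPM in Mettl14 KD cells and 428 ± 8.15 CPM in scramble cells (SD). The difference of Uqcrfs1 did not pass under the short-transcript scaling (0.11, adjusted p = 0.173), under which no member was higher and Cox6a1 lower, where 1.04% of genes were higher and 4.52% lower. Without scramble replicate 2, which belongs to neither group and enters only through the shared fit, 2 members were higher and 3 lower, where 7.22% and 7.62% of genes were: Cox7a2l joined the first, at 0.10 (adjusted p = 0.0255), and Uqcrc1 and Uqcrh the second, at -0.07 (adjusted p = 0.0493) and -0.12 (adjusted p = 0.00617). With short-transcript factors as well, 2 were higher and 3 lower, where 3.77% and 8.21% of genes were. For the other 41 members the difference did not pass, which does not show that the knockdowns act alike. For Atp5k, as an example, its SE was 0.18.

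**Figure D4:**
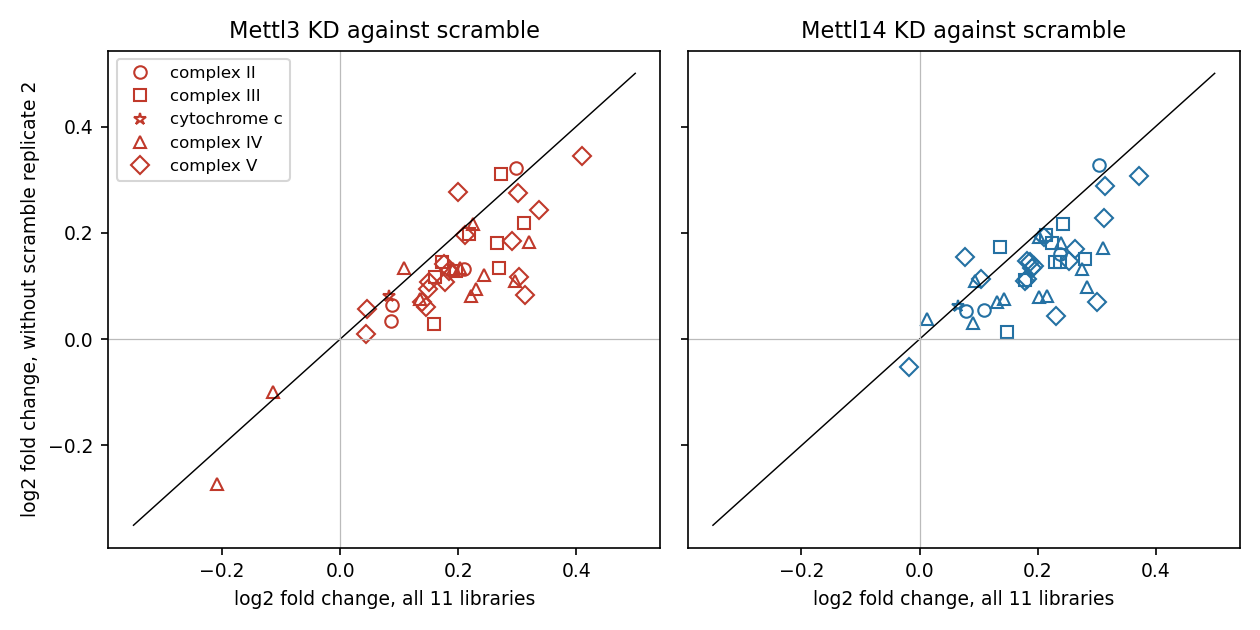
Log2 fold change of the 43 members with all 11 libraries (x axis) and without scramble replicate 2 (y axis), in Mettl3 KD (left, red) and Mettl14 KD (right, blue), with a symbol for each complex and the line of equal values. Most points lie below the line and above 0: the median is 0.20 with all libraries in each panel, and 0.13 in Mettl3 KD and 0.14 in Mettl14 KD without that library.

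The deviation of scramble replicate 2 varied with transcript length. Against the mean of scramble replicates 1 and 3, it had a median log2 ratio of -0.19 over the 43 members, with 37 below 0. The 24 members with a main transcript under 1000 bases had a median of -0.29, with 23 below 0, and the other 19 had -0.08, with 14 below 0. The lowest were Atp5k (-0.88), Atp5l (-0.66) and Cox7c (-0.66), and the highest were Atp5s (0.23), Uqcrfs1 (0.11), Cox7a2l (0.08) and Sdhb (0.07). None of the lowest 3 passed the test with all libraries, and their SE were 0.14 to 0.20. Over all tested genes, those with a longest transcript under 1000 bases had a median of -0.15 in that library, and those of 1000 bases or more had 0.00. Split by longest in place of main transcript, as these genes were, the 19 members under 1000 bases had a median of -0.22 in that library. The 24 members of 1000 bases or more had -0.13. In the tests the median log2 fold change of these 24 was 0.20 in Mettl3 KD and 0.20 in Mettl14 KD, with 16 called higher in Mettl3 KD and 15 in Mettl14 KD. Without scramble replicate 2 these were 0.13 with 17 in Mettl3 KD and 0.15 with 14 in Mettl14 KD.

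**Figure D5:**
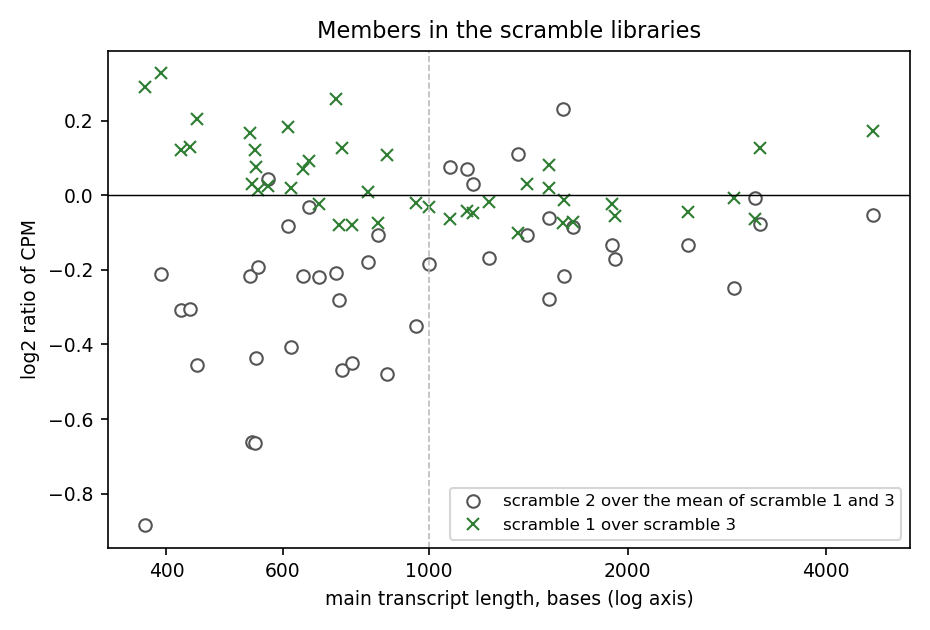
Log2 ratio of CPM (y axis) against main transcript length (x axis, log scale) for the 43 members: scramble replicate 2 over the mean of scramble replicates 1 and 3 (open circles), and scramble replicate 1 over replicate 3 (crosses). The open circles have a median of -0.29 left of the dashed line at 1000 bases and of -0.08 right of it.

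Other genes of the pathway were read from the same fits. Of 36 tested subunits of complex I, the NADH dehydrogenase upstream of these complexes, 18 rose and 1 fell in Mettl3 KD and 20 rose and 1 fell in Mettl14 KD. Of all genes 15.5% rose in Mettl3 KD and 10.1% in Mettl14 KD. Under the short-transcript scaling 10 rose in Mettl3 KD and 14 in Mettl14 KD, where 4.66% and 3.01% of all genes did. With scramble replicate 2 left out, 21 rose in each, where 15.3% of all genes rose in Mettl3 KD and 9.34% in Mettl14 KD. The median of the 36 was then 0.13 in each knockdown, against 0.19 with all libraries. Ndufb2 rose by 0.24 in each, and Ndufv3 was the subunit that fell in Mettl3 KD (-0.24, adjusted p = 0.000157). The 3 tested ADP/ATP and phosphate carriers, which exchange the substrates of ATP synthase with the cytosol, rose in both knockdowns, also with DESeq2's size factors and with short-transcript factors: the phosphate carrier Slc25a3 averaged 852 ± 15.4 CPM in Mettl3 KD, 788 ± 10.3 CPM in Mettl14 KD and 659 ± 24.4 CPM in scramble cells (SD), a log2 fold change of 0.37 in Mettl3 KD and 0.26 in Mettl14 KD, and the ADP/ATP carrier Slc25a4 had 0.34 in Mettl3 KD and 0.21 in Mettl14 KD. None of the 6 mitochondrially encoded subunits of complexes III to V passed in either knockdown in edgeR, with 2 of 6 in each at an unadjusted p under 0.05. Of them mt-Cytb had log2 fold changes of 0.09 in Mettl3 KD (adjusted p = 0.0778) and 0.08 in Mettl14 KD (adjusted p = 0.129). For mt-Co2 they were -0.43 in Mettl3 KD (adjusted p = 0.0865) and -0.40 in Mettl14 KD (adjusted p = 0.129). Under the short-transcript scaling 2 of the 6 fell in Mettl3 KD, where 27.1% of all genes did. Without scramble replicate 2 mt-Cytb rose in Mettl3 KD (0.09, adjusted p = 0.0454).

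Of 40 tested assembly factors of these complexes, 13 rose and 1 fell in Mettl3 KD and 7 rose and 1 fell in Mettl14 KD. Of all genes tested 15.5% rose in Mettl3 KD and 10.1% in Mettl14 KD. With all but scramble replicate 2, 13 rose in Mettl3 KD and 8 in Mettl14 KD, where 15.3% and 9.34% of all genes did. Under the short-transcript scaling 2 rose in each, near the 4.66% of all genes in Mettl3 KD and 3.01% in Mettl14 KD. Lrpprc, which stabilises mitochondrial messenger RNAs, rose by 0.20 in each knockdown (adjusted p = 2.73e-05 and 4.67e-05; 0.10 with an adjusted p = 0.0632 in Mettl3 KD under the short-transcript scaling). Atpaf1, a chaperone for the beta subunit of ATP synthase, rose by 0.25 in Mettl3 KD and 0.21 in Mettl14 KD, and Uqcc1, an assembly factor of complex III, by 0.18 in Mettl3 KD and 0.20 in Mettl14 KD; none of these 4 log2 fold changes passed under the short-transcript scaling. Higd1a, a hypoxia-induced factor linked to complex IV, fell by 0.37 in Mettl3 KD (adjusted p = 0.00245) and by 0.43 in Mettl14 KD (adjusted p = 0.00165). Sdhaf2, which adds the flavin to Sdha, had 0.16 in Mettl3 KD (adjusted p = 0.0189) and 0.12 in Mettl14 KD (adjusted p = 0.0788).

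Among 14 tested regulators of mitochondrial gene expression, 3 rose and 2 fell in Mettl3 KD, near the 15.5% and 15.8% of all genes that did, and 3 rose and 1 fell in Mettl14 KD, where 10.1% and 10.8% of all genes did. Leaving out scramble replicate 2, 3 rose and 3 fell in Mettl3 KD, where 15.3% of all genes rose and 15.1% fell. In Mettl14 KD 5 then rose and 1 fell, where 9.34% of all genes rose and 10.1% fell. The counts became 1 rising and 5 falling in Mettl3 KD under the short-transcript scaling, where 4.66% of all genes rose and 27.1% fell. They became 1 of each in Mettl14 KD, where 3.01% of all genes rose and 16.1% fell. Esrra, the estrogen-related receptor alpha, rose by 0.24 in Mettl3 KD (adjusted p = 0.0093) and 0.27 in Mettl14 KD (adjusted p = 0.00766), and both calls held under the short-transcript scaling. Its rise was smaller without scramble replicate 2, at 0.145 (adjusted p = 0.00402) in Mettl3 KD and 0.172 (adjusted p = 0.00129) in Mettl14 KD. Yy1 fell by 0.15 in Mettl3 KD (adjusted p = 0.000925) and by 0.13 in Mettl14 KD (adjusted p = 0.00523). The short-transcript scaling lowered log2 fold changes in general, so it is no check of the fall of Yy1. Ppargc1a, the coactivator PGC-1 alpha, which was chosen after its values were seen, had a log2 fold change of -0.11 (adjusted p = 0.0291) in Mettl3 KD and 0.13 (adjusted p = 0.0209) in Mettl14 KD, and its difference between the knockdowns was -0.24 (adjusted p = 0.00018). Under the short-transcript scaling the Mettl14 KD value was 0.06 and did not pass (adjusted p = 0.397). Nrf1 and Gabpa, also named after their values were seen, did not pass in either, with log2 fold changes of -0.10 in Mettl3 KD and -0.02 in Mettl14 KD for Nrf1 and -0.07 in Mettl3 KD and -0.08 in Mettl14 KD for Gabpa.

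Some subunits of these complexes fall outside the symbols searched and were not counted. Ndufa4, a subunit of complex IV despite its name, had 346, 361, 327 and 340.0 CPM in Mettl3 KD cells, 341, 357, 305 and 337 CPM in Mettl14 KD cells, and 282, 204 and 247 CPM in scramble cells. All knockdown libraries lay above scramble, and its log2 fold change was 0.49 ± 0.10 (adjusted p = 0.00583) in Mettl3 KD and 0.45 ± 0.10 (adjusted p = 0.0132) in Mettl14 KD. Without scramble replicate 2 it was 0.378 (adjusted p = 0.007) in Mettl3 KD and 0.341 (adjusted p = 0.0175) in Mettl14 KD. Usmg5, a small membrane subunit of complex V, had 0.22 ± 0.054 (adjusted p = 0.00504) in Mettl3 KD and 0.26 ± 0.054 (adjusted p = 0.00304) in Mettl14 KD. These became 0.148 (adjusted p = 0.00191) in Mettl3 KD and 0.184 (adjusted p = 3e-04) in Mettl14 KD without scramble replicate 2. Ndufa4 and Usmg5 were both chosen after their values were seen. Atpif1, the inhibitor that binds the F1 head when the proton gradient fails, had 119, 119, 117 and 112 CPM in Mettl3 KD cells, 117, 116, 105 and 116 CPM in Mettl14 KD cells, and 110.2, 92.6 and 101 CPM in scramble cells. It rose in both, at 0.20 ± 0.050 (adjusted p = 0.00542) in Mettl3 KD and 0.16 ± 0.050 (adjusted p = 0.0312) in Mettl14 KD; the second did not pass without scramble replicate 2 (0.10, adjusted p = 0.0861), and neither passed under the short-transcript scaling (adjusted p = 0.0725 and 0.157).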

How the data were processed

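The authors deposited 1 table of estimated counts per gene, keyed by Ensembl identifiers. Kallisto is named in the submitters' processing notes, and the libraries were stranded mRNA libraries, per the labels' protocols. The version of Kallisto, the genome build, the annotation and the step that summed transcripts to genes were not given in those sources. Before testing, the expected counts as deposited were rounded to whole numbers. Symbols, biotypes and lengths came from GENCODE M21 (GRCm38), start windows from RefSeq (GRCm38.p6). Genes were kept with edgeR's filterByExpr (minimum count 10), scaled by TMM and tested in 1 quasi-likelihood fit over all 11 libraries, with Benjamini-Hochberg adjustment over all 14133 genes (R 4.3.3, edgeR 4.0.16; DESeq2 1.42.0 as an alternative); the scripts were tested on simulated data. Every member may be named. Values by library are given for the 3 smallest p-values per complex and knockdown, and for members that fell or differed between knockdowns. They are also given for the isoform sets of complex IV, Cycs and Atpif1, and, outside this rule, for Uqcrh, Atp5e, Atp5k and Ndufa4. Genes of the other lists are given without values by library. They were mostly taken from the 2 smallest p-values per list, and not all such genes are named. Members and lists were chosen with earlier results of these data known. Intervals and floors cover counting error only.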

Additional observations from a re-analysis of the deposited data

Results flagged for a closer look

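Among 94 groups of 4 libraries (43 members and 4 complex sums in 2 knockdowns), 2 had a library far from the others, where chance gives about 1 in 20 groups. Sdha stood at 374 CPM in Mettl3 KD replicate 4 and between 362 and 364 CPM in the other Mettl3 KD libraries. Uqcrb stood at 135 CPM in Mettl14 KD replicate 2 and between 126 and 127 CPM in the other Mettl14 KD libraries.

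The effects of the knockdowns differed by a direct test for 2 of the 43 members, where 8.10% of all genes tested differed. The members as a set thus did not stand out in this test. Uqcrfs1 had a log2 difference of 0.14 between Mettl3 KD and Mettl14 KD, and Cox6a1 had one of -0.21. Cox6a1 lay below scramble in 4 of 4 Mettl3 KD libraries and above it in 4 of 4 Mettl14 KD libraries.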

How the results depend on the processing

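Counts of called members were 25 in Mettl3 KD, 23 in Mettl14 KD and 2 between the knockdowns. Over all genes they were 4420, 2956 and 1145, and brackets in this paragraph hold such all-gene counts. Member counts were 25, 23 and 2 with DESeq2's size factors in edgeR (4432, 2959 and 1129). They were 26, 26 and 2 without the filter on low counts (4606, 3332 and 1368), and 28, 27 and 2 with DESeq2 (3740, 2467 and 918). Factors from short transcripts gave 15, 20 and 1 (4483, 2701 and 786). Fitting only the 2 groups compared gave 24, 18 and 6 (3724, 2269 and 2187). Short-transcript factors together with leaving out scramble replicate 2, chosen after seeing the data, gave 13, 18 and 5 (3907, 2344 and 1716). Leaving out each library in turn gave 23 to 30, 20 to 28, and 2 to 5, where 5 came without scramble replicate 2 (2125). The larger member counts between the knockdowns, 5 and 6, thus came with larger counts over all genes. With the replicate number as a block the counts were 25, 22 and 2 (3784, 2335 and 839), without Cox7a2l in Mettl3 KD and Atp5c1 in Mettl14 KD. No pairing by number was seen in the values: over 10 same-numbered pairs r ran between -0.181 and 0.185, 1 pair was over 0.1, and 0 of 11 libraries correlated best with one of their own number. Low r does not show that same-numbered libraries were handled apart. The cause of the shifts in the counts was not tested.

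Signs changed for values near 0. With short-transcript factors, log2 fold changes in Mettl3 KD were -0.0096 for Sdhd, -0.053 for Atp5d, -0.054 for Atp5c1, -0.0086 for Sdhc and -0.015 for Cycs, and in Mettl14 KD -0.059 for Cox7a2l and -0.0051 for Cycs. With scramble replicate 2 also left out they were -0.017 for Sdhd, -0.041 for Atp5d and -0.022 for Uqcrh in Mettl3 KD, and -0.018 for Uqcr11 and -0.0022 for Cox8a in Mettl14 KD. Leaving out each library in turn, Atp5d in Mettl14 KD ran between -0.052 (without scramble replicate 2) and 0.0079 (without scramble replicate 1) and was 0.00013 without scramble replicate 3. Cox7a2l in Mettl14 KD ran between -0.016 (without scramble replicate 1) and 0.038 (without scramble replicate 2). Low members, such as Cox6a2 with 73 counts in all, could not be tested, and 3 scramble libraries limit the precision of every fold change.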

Other observations

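GGACT is the most common form of the site that the METTL3 and METTL14 enzyme methylates; methylation itself was not measured here. In the main transcript of the 43 tested members (GENCODE M21), the median was 1 GGACT, or 1.16 per kilobase, over a median length of 838 bases. Over all 12215 tested genes with a protein-coding transcript the median was 3, or 1.04 per kilobase, over 3062 bases. No GGACT was found in 10 of 43 members (23.3%) and in 8.03% of all these genes. With a main transcript under 1000 bases, 7 of 24 members had none (29.2%), against 41.3% of the 714 such genes. With one of 1000 bases or more, 3 of 19 members had none (15.8%), against 5.96% of 11501 such genes. Members thus lacked the motif less often than all genes among short transcripts and more often among longer ones, which was not tested. Sdhb, Cox7a2 and Cox6a1 were among the 10 members without GGACT, while Uqcr11 held 3 in 445 bases and Atp5mpl 3 in 612 bases. The 24 members higher in Mettl3 KD had a median of 1.21 per kilobase with 5 at 0, and the other 19 had 0.96 with 5 at 0. Median length differed too, at 1038.5 bases for the members higher in Mettl3 KD and 731 bases for the others. A motif is not a methylated site, and no value here bears on methylation.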
